A study of Mus musculus with 24 samples.

Results

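Genes that mark reactive astrocytes were followed in sorted astrocyte nuclei of the mouse spinal dorsal horn after a hindpaw incision in newborn pups, and across normal development. The set was named by gene symbol and held 39 genes, of which 35 were listed in at least 1 of the study's 4 tables of normalized expression, out of 15709 genes listed there. By the classes used here it comprised 8 pan-reactive markers, 9 markers of the state called A1, 9 of the state called A2, 2 complement genes, 7 interferon-linked and antigen presentation genes and 4 other genes linked to reactivity. Intermediate filament genes were not members. Members numbered 29 in the P4 table, 25 in the P10 table, 34 in the P24 table and 35 in the age table, and 24 were in all 4. Lcn2, Steap4, Cxcl10 and Tgm1 were in none of the tables and were not analysed here.

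Astrocytes respond to injury, inflammation and infection by changing their transcripts, a state called reactive. In mice, endotoxin induces a group of transcripts named A1, which includes complement and antigen presentation genes, and ischaemia induces a group named A2. Pan-reactive transcripts rise in both, and many of these genes are direct targets of the transcription factors STAT3 and NF-kB. Class I histocompatibility molecules consist of a heavy chain, encoded among others by H2-D1 and H2-K1, and the light chain B2m, and present peptides at the cell surface. Interferon raises their transcription in many cell types. Complement C3 is cleaved to fragments that tag surfaces for removal, and C4b acts upstream of it.

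All pups carried 1 copy each of Aldh1l1-creERT2 and R26-LSL-Sun1.GFP. The first is an inducible Cre recombinase under the regulatory sequence of the astrocyte gene Aldh1l1, and the second places GFP on the nuclear envelope after recombination. Incised pups had 1 hindpaw cut under isoflurane at P3. Naive pups received isoflurane without surgery. GFP-positive nuclei from the dorsal horn of segments L3 to L5 on the incised side were sorted at P4, P10 and P24, which is 1, 7 and 21 days after the procedure. Each library came from 1 mouse. The groups used here were P4 incised (n = 4) and P4 naive (n = 4), P10 incised (n = 3) and P10 naive (n = 3), and P24 incised (n = 4) and P24 naive (n = 4). For 2 more libraries the labels conflicted. MB12 is P10 incised by its title and P10 naive by its characteristics, and MB16 is P24 naive by its title and P10 incised by its characteristics. They joined no group, and some of the P10 results are also given with them. Libraries are named by sex and number as in the titles. The deposited sample sheet gives another sex for 4 libraries, and the fits used the titles.

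All values are expression normalized by the authors, so the depth of the libraries is unknown. All 14 astrocyte markers were listed in each table, with sums of 55333 to 96043 in P4 incised and 69325 to 86309 in P4 naive libraries. Other cells' transcripts were present too. Summed oligodendrocyte markers reached 85229 to 98461 in P24 naive libraries of the age table, against 12624 to 21049 at P10 and 1351 to 2578 at P4. The values are from bulk nuclei, so fewer cells of a type and less RNA per cell cannot be told apart.

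Promoters are shown for the 3 subunit genes of class I molecules, H2-K1, H2-D1 and B2m, because their transcripts were higher together at P24 than at P4 in naive pups. The windows come from RefSeq on GRCm38.p6 and run 5′ to 3′ on the gene's strand through the annotated start. Capitals mark GGGNNTTCC, the core of an NF-kB site, in the first 2 sequences and GAAANNGAA, the core of an interferon-stimulated response element, in the third. Only these exact letters and spacings were sought, so other forms of either element are not marked. The marks therefore do not show that a window lacks the other element. H2-K1 lies at chr17:33996017-34000347 on the minus strand, H2-D1 at chr17:35262730-35267499 on the plus strand and B2m at chr2:122147686-122153083 on the plus strand of GRCm38, and all 3 are protein coding. The window of H2-K1 is chr17:34000298-34000597 on the minus strand, that of H2-D1 is chr17:35262844-35263143 on the plus strand, and that of B2m is chr2:122147437-122147736 on the plus strand.
H2-K1: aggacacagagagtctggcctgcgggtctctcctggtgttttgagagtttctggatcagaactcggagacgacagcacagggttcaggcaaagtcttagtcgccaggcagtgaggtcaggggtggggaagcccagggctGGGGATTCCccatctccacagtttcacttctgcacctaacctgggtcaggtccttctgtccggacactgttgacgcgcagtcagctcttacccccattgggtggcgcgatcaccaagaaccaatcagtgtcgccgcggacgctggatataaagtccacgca
H2-D1: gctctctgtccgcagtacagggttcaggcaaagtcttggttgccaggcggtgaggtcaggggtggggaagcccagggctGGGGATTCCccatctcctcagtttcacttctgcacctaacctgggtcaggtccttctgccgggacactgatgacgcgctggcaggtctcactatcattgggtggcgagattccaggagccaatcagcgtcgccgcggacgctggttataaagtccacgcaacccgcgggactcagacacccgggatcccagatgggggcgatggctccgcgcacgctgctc
B2m: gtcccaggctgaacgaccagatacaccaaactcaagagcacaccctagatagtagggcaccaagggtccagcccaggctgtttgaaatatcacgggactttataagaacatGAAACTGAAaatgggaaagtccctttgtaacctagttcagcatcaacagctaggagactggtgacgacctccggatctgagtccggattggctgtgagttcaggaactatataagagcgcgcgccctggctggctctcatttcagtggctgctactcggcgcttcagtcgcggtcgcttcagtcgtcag
The NF-kB core began 111 bases before the RefSeq start of H2-K1 and 171 bases before that of H2-D1. Both windows share an identical run of 47 bases that holds it. From another RefSeq start of H2-K1 the distance was 125 bases. The gene span given for H2-D1 begins before its window, so the core lies inside that span. The response element core of B2m began 139 bases before its start. Both strands were searched in the windows of the 31 members that RefSeq matched. Some members have several windows, 41 in all. GAAANNGAA was found for 13 of these members, B2m, Ifitm2, Ifitm3 and Nfkbia among them. It was in 14 of the 41 member windows and in 8.56% of all 32851 promoter windows. GGGNNTTCC was found for 7 members, in 8 of the 41 windows and in 5.82% of all windows. TTCNNNGAA, the core of a gamma-activated site, was found for 8 members, in 9 of the 41 windows and in 8.3% of all windows. In Ifitm3 its match overlaps 1 of the GAAANNGAA matches. A match is a run of letters and not a measured binding site, and interferon-linked genes were members by choice.

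Per kilobase of merged exon, on the linear normalized scale, the highest members in P24 naive pups were B2m at 1093 ± 120.0 and Nfkbia at 1019 ± 188 (SD, n = 4). H2-D1 followed at 266 ± 32.9, Ifitm2 at 243 ± 32.6, Ifitm3 at 238 ± 32.0, H2-K1 at 187 ± 19.8 and Serpina3n at 163 ± 57.4. B2m and Nfkbia lay within each other's spread, as did H2-D1, Ifitm2 and Ifitm3. Near-identical relatives can share reads, so levels of H2-D1, H2-K1 and H2-T23, of Ifitm2 and Ifitm3, of Gbp2 and Gbp3, of C4b and of Serpina3n are uncertain to that extent.

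The first comparison asked which transcripts an incision changes 1 day later, at P4. None of the 29 members passed the test at P4, where 0.0281% of all 14243 genes did, with a call at a Benjamini-Hochberg adjusted p under 0.05 in limma. The lowest adjusted p of a member was 0.585. One member, B2m, had an unadjusted p under 0.05, as did 1141 of all genes. Fold changes were positive for 13 members and negative for 16, with a median log2 difference of -0.15 for members and -0.02 for all genes.

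B2m, the class I light chain, had 622, 709.7, 595 and 594 in P4 incised libraries, against 493, 520.3, 487 and 407 in P4 naive libraries. It was the only member at P4 whose groups did not overlap, and 5.9% of all genes did not overlap at P4. The log2 difference was 0.43 (SE 0.19, limma adjusted p = 0.585). The heavy chain genes showed no such separation. H2-D1 had 304, 294, 477 and 332 in P4 incised and 283, 347, 249 and 379 in P4 naive libraries, and H2-K1 had 157, 261, 201 and 501 in incised and 200.1, 242, 199 and 216 in naive libraries. For both, the groups overlapped, and the log2 differences of 0.13 and 0.16 did not pass.

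Nfkbia, the inhibitor that NF-kB itself induces, had 962, 703, 703 and 852 in P4 incised libraries, against 681, 779.8, 669.8 and 553 in P4 naive libraries (log2 difference 0.34, SE 0.18, limma adjusted p = 0.678). Ifitm2, a membrane protein that restricts viral entry, had 374, 242, 362 and 360.5, against 294, 337, 236 and 200.1 in naive libraries (0.43, SE 0.23, limma adjusted p = 0.685). Incised M1 was low among the incised libraries for Ifitm2, and the groups overlapped for both genes. Cd44, the hyaluronan receptor, had 698, 818, 547 and 519 in P4 incised and 267, 353, 610.3 and 589.9 in P4 naive libraries (0.44, SE 0.26, limma adjusted p = 0.702). Naive F1 and F2 were the 2 lowest libraries for Cd44, and naive M1 and M2 lay among the incised ones.

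Widely used reactive markers did not pass either at P4. Serpina3n, a secreted protease inhibitor in the pan-reactive group, averaged 451 ± 123 in P4 incised and 455 ± 94.1 in P4 naive libraries (SD, n = 4 each), a log2 difference of -0.17 with a 95% interval of -0.62 to 0.29. C4b averaged 61.7 ± 38.1 and 82.8 ± 56.3 in the same order (-2.04 to 0.64). Timp1, an inhibitor of matrix metalloproteinases, had 26.4, 12.6, 27.5 and 0 in incised libraries, 1 of them listed at 0, and 30.6, 25.8, 7.11 and 19.5 in naive ones. The immunoproteasome subunit Psmb8 averaged 10.1 ± 4.44 and 21.6 ± 13.9, and the interferon-induced GTPase Iigp1 21.4 ± 9.71 and 31.1 ± 5.82, with intervals that include 0. The authors kept only genes above 20 in some group, and Timp1 and Psmb8 averaged that much in naive libraries alone. Among A2 members, Ptx3, Sphk1, Cd109, Ptgs2, Emp1, Tm4sf1, B3gnt5 and Cd14 had log2 differences of -0.39 to 0.39, 4 of 8 positive.

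Precision differed between members. The standard error ran from 0.18 to 1.08, with a median of 0.46 for members and 0.37 for all genes. The 95% interval lay within 1 log2 unit of no change for 9 of 29 members, and for 7 it reached a doubling. The summed levels of 8 mural markers lay at 1022 to 1424 in incised and 591 to 940.4 in naive P4 libraries. Of these genes 6 had a positive log2 difference, with a median of 0.28. The difference was 2.68 for Acta2 and 1.90 for Tagln, while Abcc9 (-0.21) and Kcnj8 (-0.25) were negative. Summed levels of 9 oligodendrocyte precursor markers lay at 1534 to 1951 in incised and 1104 to 1339 in naive libraries. No mural or precursor gene passed. Their part in the members' values was not tested.

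**Figure D1:**
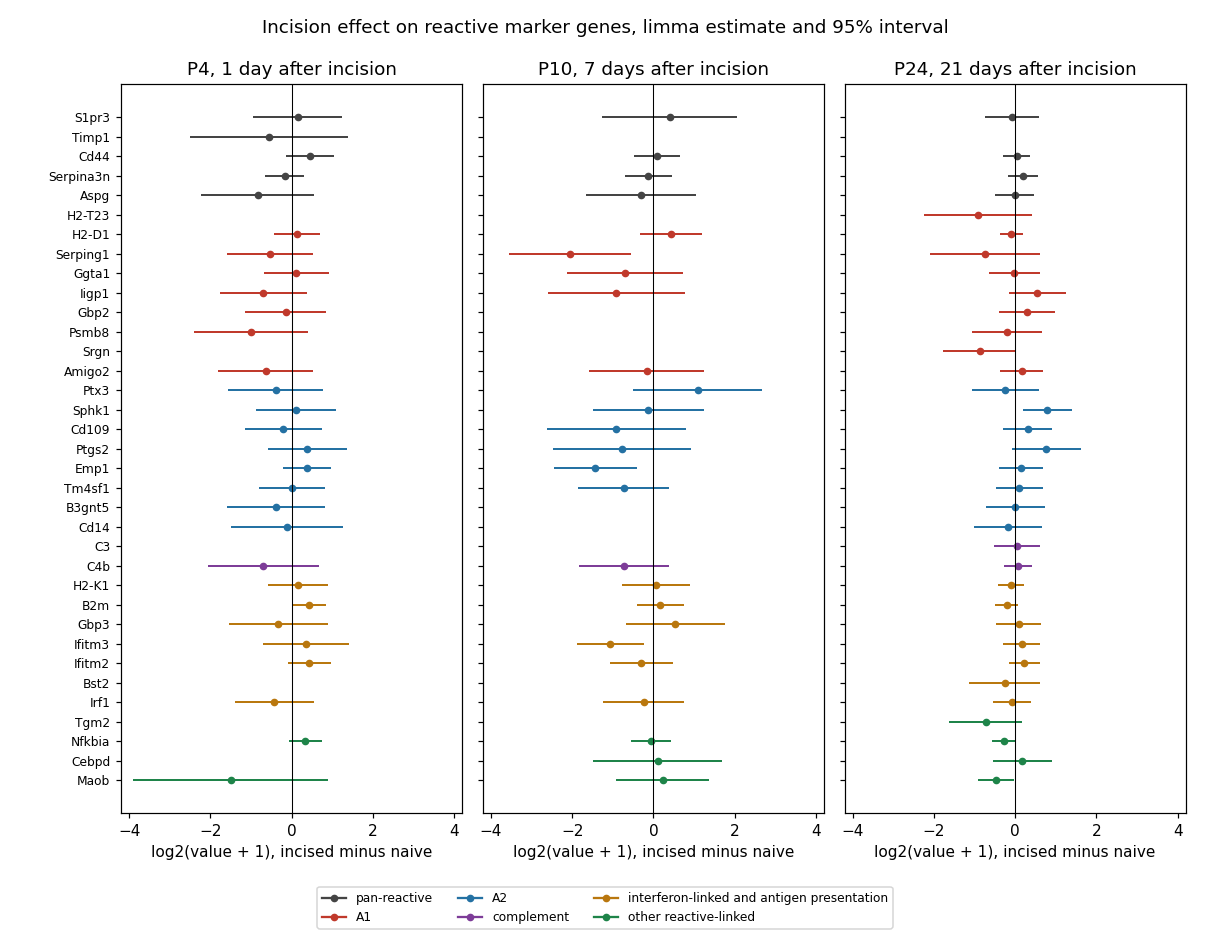
Incised minus naive on the log2(value + 1) scale for 35 members at P4, P10 and P24, as the limma estimate (point) with its 95% interval (line), coloured by class. Members absent from a table have no mark. No member passed at any age, and intervals are narrowest at P24.

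At P10, 7 days after incision, none of 25 members passed, and 0% of all 13699 genes did. The lowest adjusted p of a member was 0.9998. An unadjusted p under 0.05 was found for 3 members and for 602 of all genes. Of the 25, 9 had a positive and 16 a negative fold change, with a median log2 difference of -0.17 against 0.01 for all genes.

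Ifitm3, an interferon-induced relative of Ifitm2, had 99.9, 126 and 136 in P10 incised libraries, against 289, 228 and 224 in P10 naive libraries. Serping1, the inhibitor of the first complement component, had 6.93, 13.9 and 21.5 in incised and 53.8, 79.3 and 36.8 in naive libraries. These were the 2 members whose groups did not overlap, both lower in incised pups, where 9.48% of all genes did not overlap. The log2 difference was -1.06 (SE 0.39) for Ifitm3 and -2.05 (SE 0.72) for Serping1, each with a limma adjusted p of 0.9998. With the disputed libraries, the groups overlapped for both genes by the characteristics and for Serping1 by the titles. MB12 had 68.1 for Ifitm3 and MB16 had 134, and for Serping1 MB12 had 77.3 and MB16 had 140.5. By the characteristics, which make MB16 incised and MB12 naive, the log2 difference was -0.60 for Ifitm3 and -1.06 for Serping1. By the titles, which make MB12 incised, it was -1.28 for Ifitm3 (adjusted p = 0.5196) and -1.26 for Serping1.

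Emp1, an epithelial membrane protein of the A2 group, had 29.3, 194 and 152 in P10 incised and 209.8, 178 and 194 in P10 naive libraries (log2 difference -1.43, SE 0.49, limma adjusted p = 1.000). A single library, incised F2, was far below the others, and the groups overlapped. The difference for Emp1 was -1.12 by the characteristics and -1.02 by the titles. Ptx3, a secreted pattern recognition protein, had 24.4, 27.8 and 71.2, against 43.2, 22.96 and 6.83 in naive libraries (1.09, SE 0.76, limma adjusted p = 1.000). Groups overlapped, and the difference was 0.38 by the characteristics and 1.08 by the titles. Without naive M1 it was -0.36, a value in which the sex term sets incised F2 alone against naive females. C4b had 162, 39.2 and 59.6 in incised and 103, 142 and 176 in naive libraries, and Serpina3n 542, 459 and 436 in incised and 602, 478 and 536 in naive libraries. Groups overlapped for both. The 95% interval lay within 1 log2 unit of no change for 5 of 25 members and reached a doubling for 9. Mural sums lay at 959 to 1059 in incised and 767 to 918 in naive P10 libraries. Of 7 mural genes 5 had a positive log2 difference, with a median of 0.16 and none passing. Their part in these values was not tested.

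At P24, 21 days after incision, the libraries resolved smaller differences, and none of 34 members passed, as for 0% of all 15246 genes. The lowest adjusted p of a member was 0.38. An unadjusted p under 0.05 was found for 3 members and for 1525 of all genes, and the median log2 difference was -0.003 for members and -0.02 for all genes, with 17 members positive and 17 negative.

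Sphk1, the kinase that makes sphingosine 1-phosphate, had 63.7, 54.3, 74.9 and 74.5 in P24 incised libraries, against 39.4, 30.8, 34.5 and 49.03 in P24 naive libraries. It was the only member at P24 whose groups did not overlap, and 4.96% of all genes did not overlap at P24. The log2 difference was 0.79 (SE 0.28, limma adjusted p = 0.380). S1pr3, a receptor of the same lipid, averaged 50.2 ± 20.4 in incised and 52.1 ± 18.2 in naive libraries, a log2 difference of -0.08.

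Maob, the monoamine oxidase of astrocytes, had 167, 109, 196 and 132 in P24 incised and 292, 174, 184 and 189 in P24 naive libraries (-0.47, SE 0.21, limma adjusted p = 0.459), with naive F2 high. Nfkbia had 1546, 1355, 1507 and 1786 in incised and 1631, 1980.4, 1627 and 2334 in naive libraries (-0.28, SE 0.13, limma adjusted p = 0.467). Srgn, a granule proteoglycan, had 17.3, 7.19, 16.7 and 17.9, against 17.3, 25.4, 23.5 and 47.04 in naive libraries (-0.88, SE 0.43, limma adjusted p = 0.504). For all 3 the groups overlapped, though the averages were lower in incised pups. Srgn averaged 28.3 in naive and 14.8 in incised libraries, and the authors kept only genes above 20 in some group. It was thus listed through its naive level, which favours a lower value in incised pups.

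Complement and class I members did not pass at P24. C3 had 57.9, 65.2, 72.5 and 70.97 in P24 incised and 83.2, 41.5, 74.9 and 66.4 in P24 naive libraries, and C4b 262, 355, 342 and 293 in incised and 284, 315, 309.9 and 280.3 in naive libraries. The 95% interval of the log2 difference was -0.50 to 0.59 for C3 and -0.25 to 0.38 for C4b. It was -0.35 to 0.17 for H2-D1, -0.39 to 0.18 for H2-K1, -0.46 to 0.04 for B2m and -0.16 to 0.55 for Serpina3n. For 24 of 34 members it lay within 1 log2 unit of no change, and for 3 it reached a doubling. Oligodendrocyte markers summed to 74640 to 88900 in incised and 98562 to 112378 in naive P24 libraries, with all 11 genes lower on average and none passing. Precursor markers summed to 4012 to 5214 in incised and 5343 to 7222 in naive libraries, with 9 of 9 genes lower and none passing. Their part in the members' values was not tested.

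**Figure D2:**
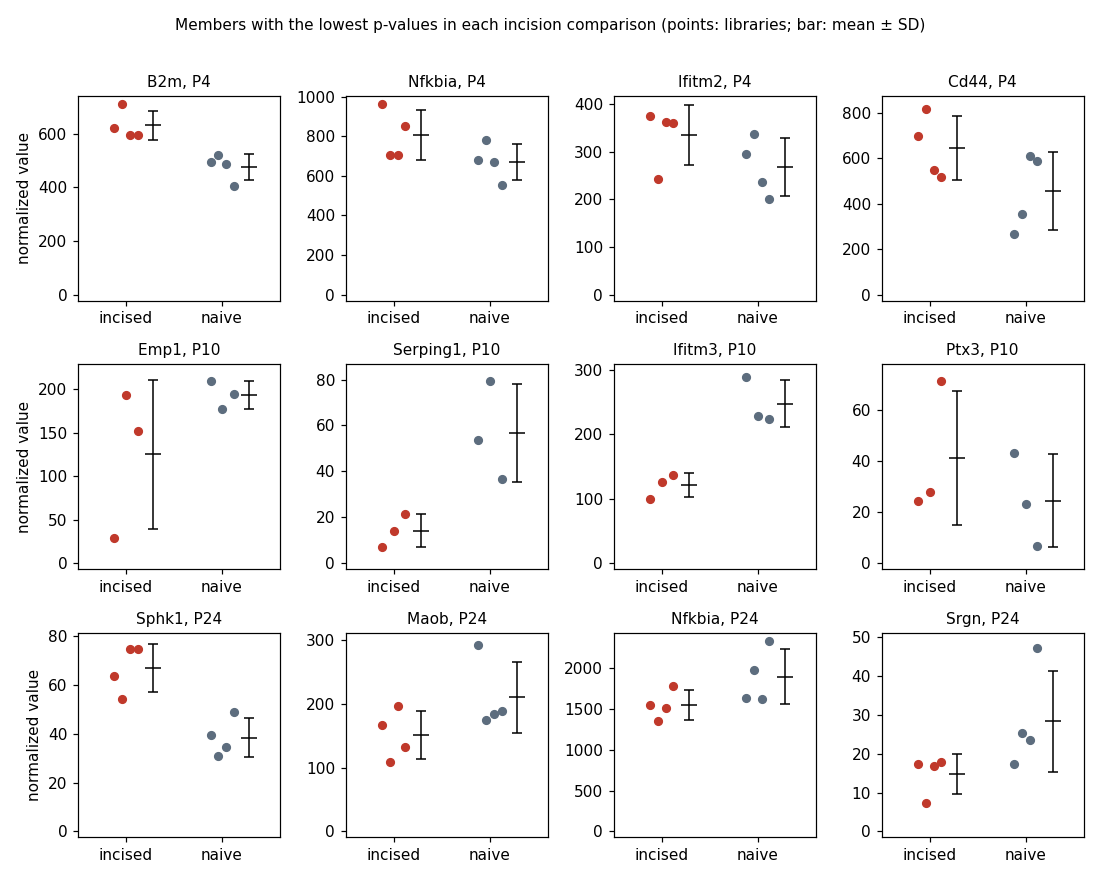
Normalized values of the 4 members with the lowest p-values in each incision comparison (rows: P4, P10, P24), 1 point per library, incised left of naive, with mean ± SD. B2m at P4, Serping1 and Ifitm3 at P10 and Sphk1 at P24 have groups that do not overlap, and none of the 12 differences passed after adjustment.

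A difference of the incision effect between ages was looked for in the 24 members listed in all 3 incision tables. None passed, against 0.0985% of all 13200 genes. B2m was the 1 member with an unadjusted p under 0.05 (limma F test, adjusted p = 0.441), with separate log2 effects of 0.43 at P4, 0.17 at P10 and -0.21 at P24. None of the members had an adjusted p under 0.05 for incision at any age in the authors' deposited tables, where 76, 2 and 8 of all genes did at P4, P10 and P24, with a lowest value of 0.55 at P4, 0.998 at P10 and 0.433 at P24. Those P10 values used the characteristics of MB12 and MB16.

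Genes outside the set that share its pathways did not pass after incision at P4, P10 or P24, although single genes had low unadjusted p-values in either direction. Of 10 other reactive genes tested at P4, 5 had a positive and 5 a negative log2 difference. The filament gene Vim averaged 1018 ± 277 in incised and 493 ± 134 in naive libraries (SD, n = 4 each), a log2 difference of 1.15 (SE 0.23, limma adjusted p = 0.146). The annexin partner S100a10 averaged 112 ± 35.1 in incised and 57.8 ± 14.4 in naive libraries (1.04, limma adjusted p = 0.513). Gfap, the filament gene most used as a reactive marker, went the other way, with 8930, 7991, 10275 and 8368 in incised and 9707, 11288, 16272 and 11137 in naive P4 libraries (-0.47, limma adjusted p = 0.552), and the groups overlapped. Lifr, a receptor subunit upstream of STAT3, had 784, 1253, 1473 and 1063 in incised and 2185, 1996, 2179 and 1892 in naive P4 libraries, with no overlap (-0.95, SE 0.20, limma adjusted p = 0.182). The summed level of the 21 NF-kB and STAT3 signalling genes at P4 was 3663 to 5215 in incised and 5403 to 5934 in naive libraries. Lifr is 1 of these genes and a large part of that sum. Of the 21, 9 had a positive log2 difference, and the median was -0.21.

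At P10, Gfap had 12804, 16893 and 18527 in incised and 26422, 26985 and 22050.2 in naive libraries. All incised libraries were below all naive ones, with a log2 difference of -0.69 (SE 0.15, unadjusted p = 8.39e-05, limma adjusted p = 0.561), the lowest p of these lists. The call depended on the settings, and Gfap passed with quantile normalization (-0.77, limma adjusted p = 0.00511). The difference was -1.06 without naive M1 and -0.32 without incised F2. With sex as a term, the first sets incised F2 alone against naive females. The second sets naive M1 alone against incised males. MB12 had 19255 and MB16 had 29302, and the difference was -0.31 by the characteristics (adjusted p = 0.998) and -0.59 by the titles (adjusted p = 0.485). At P24, Gfap averaged 21018 ± 2511 in incised and 20288 ± 2511 in naive libraries (0.05). Of the lists for interferon response, antigen presentation, the complement pathway and NF-kB and STAT3 signalling, 28, 14, 14 and 21 genes were tested at P4, 27, 14, 12 and 21 at P10 and 30, 16, 13 and 24 at P24, and 0 of each passed.

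Age in naive pups was compared in a table of its own. Of 35 members, 16 differed between P4, P10 and P24 in limma's F test at an adjusted p under 0.05, where 26.9% of all genes did. Relative to P4, P24 pups had more transcript of C3, C4b, Maob, Aspg, H2-K1, Nfkbia, H2-D1 and B2m, and less of B3gnt5, Ggta1, Emp1, Ifitm2, Tm4sf1 and Serpina3n. Of 35 members, then, 8 were higher and 6 lower at P24 than at P4, where 11.6% of all genes were higher and 7.83% lower. The authors kept only genes above a level of 20 in some group, and members such as C3 and Srgn passed that filter through 1 age alone, so these counts are a description of the members.

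Both complement members, C3 at chr17:57203970-57228136 and C4b at chr17:34728380-34743882 on the minus strand of GRCm38, rose with age. C3 had 14.6, 3.65, 4.28 and 6.34 in the P4, 17.6, 6.80 and 26.8 in the P10 and 71.2, 35.6, 63.3 and 57.2 in the P24 naive libraries. Every P24 library was above every earlier one. The log2 difference of P24 against P4 was 2.95 (SE 0.53, limma adjusted p = 2.66e-04) and that of P24 against P10 1.78 (adjusted p = 0.0408). C3 was listed through its P24 level alone, so these p-values describe a gene kept for being high there. C4b had 44.9, 55.2, 104 and 193 at P4, 122, 165 and 205 at P10 and 243, 270.2, 262 and 241 at P24. Its P24 libraries lay close together and above all others, and the log2 difference of P24 against P4 was 1.58 (SE 0.29, limma adjusted p = 3.34e-04). P10 against P4 gave 1.04 (adjusted p = 0.0307), with overlapping groups.

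The class I genes whose promoters are shown above reached their highest levels at P24. H2-D1 had 336, 415, 298 and 451 in P4, 321, 255 and 157 in P10 and 775, 733, 649 and 585 in P24 naive libraries. It was lower at P10 than at P4, with a log2 difference of -0.71 (SE 0.21, limma adjusted p = 0.0241), and higher at P24 than at P10 by 1.59 (SE 0.21, adjusted p = 1.39e-05). The lowest P24 library stood above the highest of either earlier age. H2-K1 had 238, 289, 238 and 258 at P4, 538, 255 and 175 at P10 and 484, 576, 614 and 518 at P24. Naive F1 was the 1 P10 library in the range of P24 for H2-K1. P24 exceeded P4 by 1.09 (SE 0.24, limma adjusted p = 0.00203), with no overlap. B2m had 573, 608, 570.1 and 474 at P4, 939.9, 662 and 485 at P10 and 1066, 955, 922 and 816 at P24. The same P10 library, F1, was high for B2m, and P24 exceeded P4 by 0.76 (SE 0.16, limma adjusted p = 0.00136). H2-T23, a non-classical class I gene, averaged 13.98 ± 6.37 at P4, 17.3 ± 17.3 at P10 and 32.1 ± 6.05 at P24 (SD, n = 4, 3 and 4), and its difference of 1.21 between P24 and P4 did not pass (adjusted p = 0.124).

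**Figure D3:**
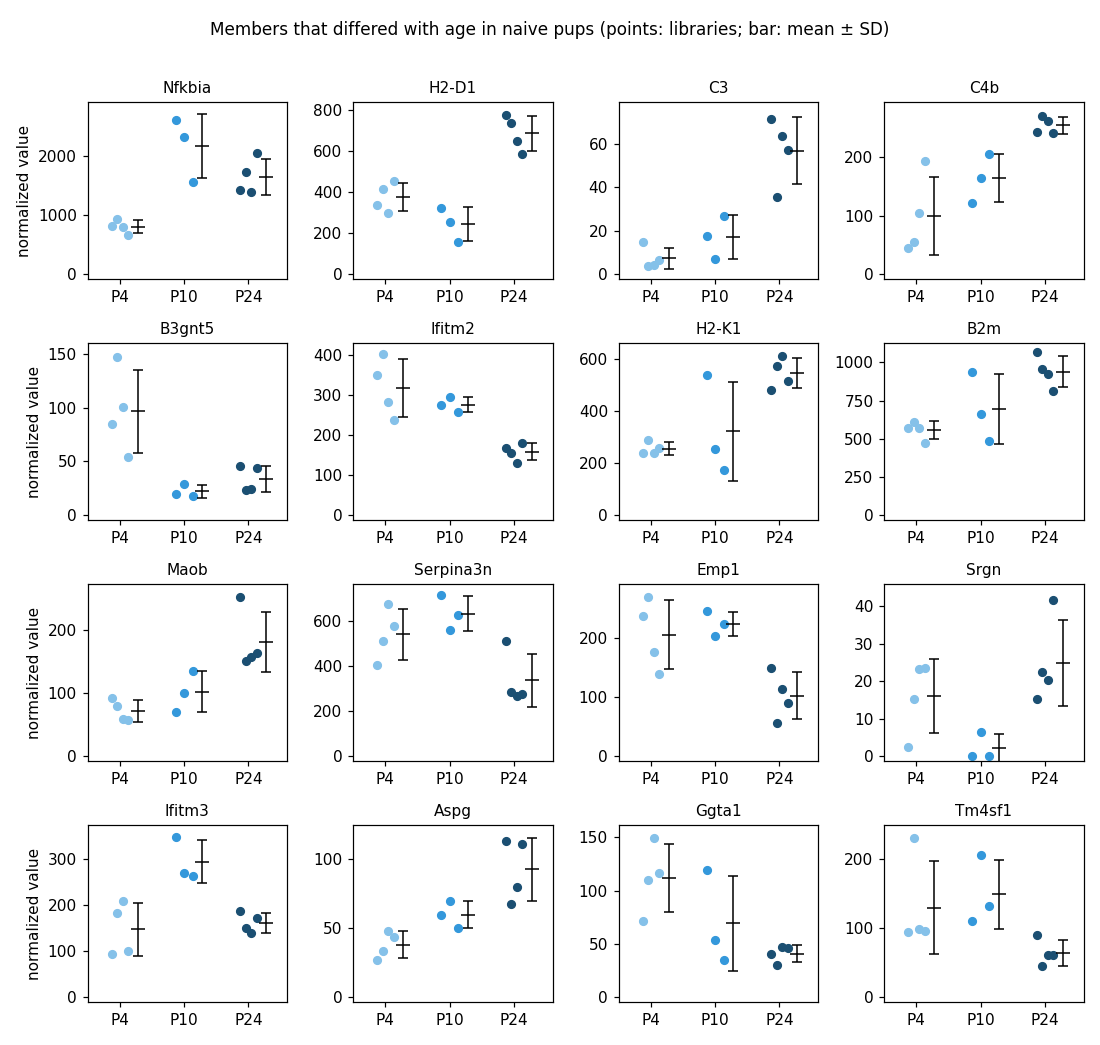
Normalized values of the 16 members that differed with age, 1 point per naive library at P4, P10 and P24, with mean ± SD, ordered by the p of the F test. C3, C4b, H2-D1 and Maob have every P24 library above every P4 and P10 library shown, while Ifitm2 has every P24 library below every earlier one. MB12 is not shown, and its Maob value of 162 is above P24 naive F3 and M1.

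Of the interferon-linked members outside class I, Ifitm2 fell with age and Ifitm3 was highest at P10. Ifitm2 had 351, 403, 283 and 239 in P4, 275, 296 and 258 in P10 and 169, 155, 131 and 181 in P24 naive libraries. It was lower at P24 than at P4, with a log2 difference of -0.98 (SE 0.19, limma adjusted p = 7.59e-04). Ifitm3 ranged from 94.4 to 209 at P4, from 264 to 347 at P10 and from 139 to 187 at P24. It was higher at P10 than at P4 by 1.06 (SE 0.28, limma adjusted p = 0.0138) and lower at P24 than at P10, with -0.85 (adjusted p = 0.0458). By the characteristics, with MB12 as a P10 naive library, neither passed, at 0.64 (adjusted p = 0.31) and -0.43 (adjusted p = 0.54). Gbp3, a guanylate-binding protein, averaged 54.5 ± 18.8, 64.8 ± 14.9 and 64.8 ± 16.8 at P4, P10 and P24. The transcription factor Irf1 averaged 112 ± 34.8, 157 ± 74.6 and 104 ± 11.7, and neither passed. Bst2, which tethers virus particles to membranes, averaged 25.4 ± 12.96 at P24 and was listed at 0 in 1 P10 library.

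The NF-kB inhibitor and a pair of enzymes rose with age. Nfkbia had 806, 928, 799 and 656 in P4, 2606, 2310.2 and 1559 in P10 and 1414, 1719, 1393 and 2036 in P24 naive libraries. Every later library was above every P4 library. P10 exceeded P4 by a log2 difference of 1.38 (SE 0.18, limma adjusted p = 2.23e-05), P24 exceeded P4 by 1.03 (adjusted p = 6.87e-05), and P24 against P10 gave -0.34 (adjusted p = 0.223). Maob had 92.4, 79.3, 58.6 and 57.2 at P4, 70.6, 100.2 and 136 at P10 and 253, 151, 158 and 165 at P24. Its P24 libraries lay above all other grouped libraries. The disputed MB12, at P10 by both its labels, had 162, above P24 naive F3 and M1. P24 exceeded P4 by 1.32 (SE 0.28, limma adjusted p = 0.00154). Aspg, an asparaginase counted among the pan-reactive markers, ranged from 26.7 to 47.7 at P4, from 49.9 to 69.7 at P10 and from 67.3 to 113 at P24, with P24 above P4 by 1.27 (SE 0.32, adjusted p = 0.00698).

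The pan-reactive Serpina3n and 3 members of the A2 group were lower at P24. Serpina3n had 406, 511, 676 and 579 in P4, 715, 559.9 and 627 in P10 and 514, 287, 268 and 279 in P24 naive libraries. Naive F2 stood apart at P24 and lay in the P4 range. P24 was lower than P10, with a log2 difference of -0.96 (SE 0.23, limma adjusted p = 0.00628) and lower than P4, with -0.72 (adjusted p = 0.0169). B3gnt5, a glycosyltransferase of the A2 group, had 84.5, 147, 101 and 54.2 at P4, 19.4, 29.03 and 17.9 at P10 and 45.4, 23.2, 24.04 and 43.5 at P24. All later libraries were below all P4 libraries, with log2 differences of -2.07 for P10 against P4 (SE 0.42, limma adjusted p = 0.00186) and -1.46 for P24 against P4 (adjusted p = 0.00848). Emp1 had 236, 269, 176 and 139 at P4, 244, 203 and 222 at P10 and 149, 55.8, 114 and 90.4 at P24. Its log2 difference was -1.17 for P24 against P10 (SE 0.30, limma adjusted p = 0.0109) and -1.04 for P24 against P4 (adjusted p = 0.00950). Tm4sf1, a membrane protein of the same A2 group, ranged from 94.8 to 231 at P4, from 109.9 to 206 at P10 and from 45.1 to 90.01 at P24 (-0.93 for P24 against P4, adjusted p = 0.0426).

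Of 9 A1 members 3 differed with age, H2-D1 above, Ggta1 and Srgn. Ggta1, which adds terminal galactose to glycans, ranged from 71.8 to 149 at P4, from 34.7 to 119 at P10 and from 29.8 to 47.01 at P24, and was lower at P24 than at P4, with a log2 difference of -1.40 (SE 0.37, limma adjusted p = 0.00821). Srgn had 2.42, 15.2, 23.2 and 23.6 in P4, 0, 6.54 and 0 in P10 and 15.2, 22.4, 20.4 and 41.6 in P24 naive libraries, with 2 P10 libraries listed at 0. It was lower at P10 than at P4, with -2.69 (SE 0.82, limma adjusted p = 0.0324) and higher at P24 than at P10 by 3.54 (adjusted p = 0.00525), values that rest on those zeros. With MB12 among the P10 naive libraries, where it has 17.9, they were -1.91 (adjusted p = 0.184) and 2.76 (adjusted p = 0.04999). Like C3, Srgn was listed through its P24 level alone, so the values of P24 against P10 describe a gene kept for being high there. Microglia marker sums were 1069 to 1295 (P4), 727 to 881 (P10) and 1031 to 1529 (P24), over 12 of 15 listed genes, without Aif1, Itgam and Ptprc. Of these 12 genes 5 differed with age. At P24 against P10 all 12 had a positive log2 difference, with a median of 1.03 and 4 called higher. Their part in the values of Srgn and C3 was not tested. Serping1, Iigp1, Gbp2, Psmb8 and the adhesion molecule Amigo2 did not pass.

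Across adjacent ages, 3 members were higher and 3 lower at P10 than at P4, where 7.15% of all genes were higher and 6.53% lower. At P24 against P10, 5 were higher and 5 lower, where 8.86% of all genes were higher and 5.43% lower. The median log2 difference was 0.13 for members and -0.02 for all genes at P10 against P4, 0.18 and 0.03 at P24 against P10, and 0.13 and 0.001 at P24 against P4. The 19 members that did not pass the F test with age were S1pr3, Timp1, Cd44, H2-T23, Serping1, Iigp1, Gbp2, Psmb8, Amigo2, Ptx3, Sphk1, Cd109, Ptgs2, Cd14, Gbp3, Bst2, Irf1, Tgm2 and Cebpd. Cd44 averaged 536 ± 202, 622 ± 157 and 621 ± 129 at P4, P10 and P24 (SD, n = 4, 3 and 4). For Tgm2, a transglutaminase, the averages were 22.5 ± 7.02, 28.2 ± 13.3 and 25.3 ± 9.70, and for the transcription factor Cebpd 18.3 ± 8.66, 35.5 ± 23.02 and 25.02 ± 4.22. Ptgs2, the inducible cyclooxygenase, averaged 23.8 ± 6.11, 26.3 ± 13.9 and 15.8 ± 2.72.

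**Figure D4:**
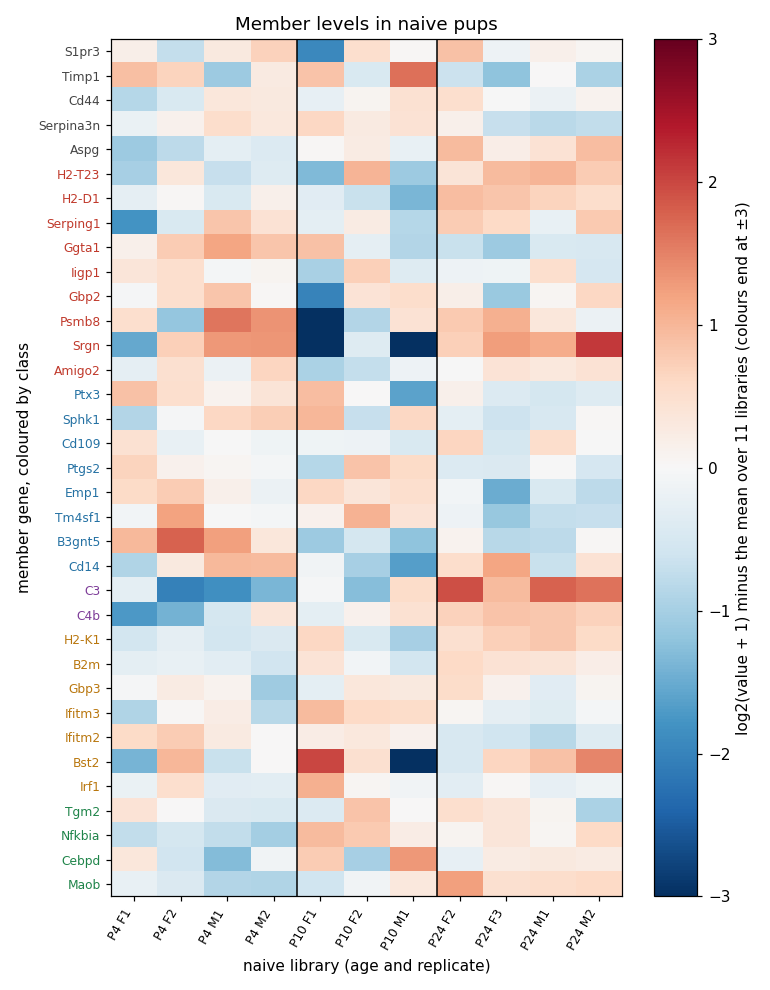
Level of each of 35 members in the 11 naive libraries as log2(value + 1) minus the member's mean over those libraries, with members down the page coloured by class and libraries by age across. C3, C4b, H2-D1, H2-K1 and B2m are above their mean in the 4 P24 libraries. Values listed at 0 give the darkest low cells, for Srgn, Psmb8 and Bst2 at P10.

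Several age calls depended on single libraries. For P24 against P4, B3gnt5 was lost without P4 naive F2 (limma adjusted p = 0.0516), Emp1 without P24 naive F3 (0.0594), Serpina3n without P4 naive M1 or M2 or P24 naive F3, M1 or M2 (0.0537 to 0.0861), and Tm4sf1 without P4 naive F2, M1 or M2 or P24 naive F3, M1 or M2 (0.0582 to 0.217). The 9 members called under every alternative run were Aspg, B2m, C3, C4b, H2-D1, H2-K1, Ifitm2, Maob and Nfkbia, except that C3 was not tested with a filter at a mean of 50. C3 passed the authors' filter through P24 alone, which favours a call of higher at P24. For P10 against P4 the count was 3 without P4 naive F2 or P10 naive M1, and B3gnt5 and Nfkbia were called under every alternative. There H2-D1 was lost without P4 naive F2 or M2 or P10 naive M1 (0.0603 to 0.208), C4b without P4 naive F1, F2 or M1 or P10 naive F2 or M1 (0.0594 to 0.126) and Ifitm3 without P4 naive F1 (0.0707). Srgn was lost without P4 naive F2, M1 or M2, P10 naive F1 or M1, or P24 naive F3 or M2 (0.0503 to 0.225). For P24 against P10 it was 4 without P10 naive M1 or P24 naive F3 and 6 without P24 naive F2, M1 or M2, and of the 10 only H2-D1 was called under every alternative run. C3 was lost there without P10 naive F2 or any 1 of the P24 libraries (0.0594 to 0.155), and H2-K1 without P10 naive F2 or M1 or P24 naive M1 (0.0519 to 0.192). B2m was lost without P4 naive F2, P10 naive F2 or M1, or any 1 of the P24 libraries (0.0554 to 0.286), and Ifitm3 without any 1 of the P10 or P24 libraries (0.0545 to 0.127). Ifitm2 was lost without P10 naive M1 or P24 naive F2 or F3 (0.0558 to 0.0768), Emp1 without P10 naive M1 or P24 naive F3 (0.0638 to 0.0664), Srgn without P10 naive M1 (0.0658), and Tm4sf1 without P10 naive F2 or M1 or P24 naive F3 or M2 (0.0506 to 0.136). The log2 difference itself moved by over 1.5 times in 4 cases, all without P10 naive M1. H2-D1 became -0.45 and Srgn -1.71 at P10 against P4, and B2m became 0.35 and H2-K1 0.55 at P24 against P10. In the other lost calls it moved less.

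The study's own age test included MB12 as a P10 naive library. Of 35 members, 14 had in the authors' deposited table an adjusted p under 0.05 with age, as did 28.6% of all genes, and 9 had one under 0.001, as did 13.5% of all genes. Ifitm3 (0.217) and Srgn (0.0519), which differed with age here, did not pass in the authors' deposited table.

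Marker genes of other cells changed with age in the same libraries. All 11 oligodendrocyte markers were higher at P24 than at P4, and 8 of 9 precursor markers, with sums of 1332 to 1627 (P4), 1615 to 2511 (P10) and 4525 to 6102 (P24). Endothelial sums ran from 565 to 708 (P4), 812 to 1035 (P10) and 967 to 1297 (P24), and neuron sums from 6212 to 8177, 4819 to 6802 and 9529 to 12817. Most genes of both lists did not follow the sums. At P24 against P4, 2 of 9 endothelial markers had a positive log2 difference, with a median of -0.52, 1 called higher and 1 lower. Of 11 neuron markers, 4 were positive, with a median of -0.25, 2 called higher and 2 lower. Astrocyte sums were 82126 to 102713, 114922 to 162934 and 135418 to 201665 at P4, P10 and P24, with 7 of 14 genes higher and 3 lower at P24 than at P4. The part of these shifts in the class I, complement and Maob values was not tested.

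**Figure D5:**
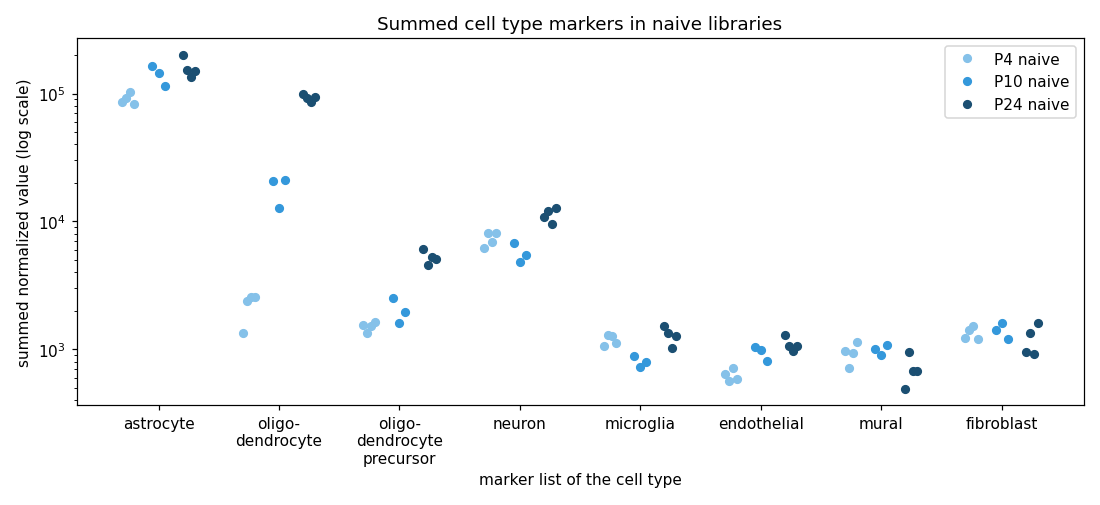
Summed normalized values of 8 marker lists in each naive library (log axis), coloured by age from P4 to P10 to P24. Oligodendrocyte sums run from 1351 at P4 to 98461 at P24, and microglia sums are lower at P10, at 727 to 881, than at P4 or P24.

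Other genes of the same pathways were compared at P24 against P4, where 11.6% of all genes were higher and 7.83% lower. Of 15 complement pathway genes tested, 2 were higher and 1 lower. Clu, which encodes the secreted chaperone clusterin, averaged 1551 ± 656 at P4, 6742 ± 1113 at P10 and 8314 ± 1675 at P24 (SD, n = 4, 3 and 4), a log2 difference of 2.50 for P24 against P4 (SE 0.25, limma adjusted p = 1.25e-05). Of 15 antigen presentation genes, 1 was higher and 5 lower. The peptide transporter gene Tap2 was higher at P24 than at P4 (1.20, adjusted p = 9.12e-04), while tapasin, encoded by Tapbp, and the chaperone gene Canx were lower (-0.79 and -0.73). These components help to supply peptides to the class I molecules described above or to assemble them. Of 30 interferon response genes, 4 were higher, led by Ifi27 at 79.5 ± 22.9, 125 ± 49.8 and 267 ± 41.1 (1.76, adjusted p = 4.08e-05), and 2 lower, among them the receptor gene Ifngr2 (-0.82, adjusted p = 0.00223). Of 22 NF-kB and STAT3 signalling genes, 3 were higher, led by the receptor gene Tlr2 at 29.8 ± 2.26, 36.3 ± 24.98 and 152 ± 43.1 (2.27, adjusted p = 1.06e-04), and 1 was lower. Of 10 other reactive genes, Hspb1 was higher (1.25, adjusted p = 0.0286) and Vim lower (-1.13, adjusted p = 1.80e-04).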

How the data were processed

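Nuclear RNA was sequenced from GFP-positive nuclei of 24 pups. STAR, Salmon and DESeq2 were used with mm10, per the submitters' processing notes, and the versions are not given in the sources used here. The deposited values are a signal per gene and library, expression normalized by the authors with DESeq2, in 4 tables normalized separately. Counts could not be had, so depth is unknown. The authors' own log2 fold changes and p-values are deposited beside them. Per the file headers, the authors tested with sex as a term and kept genes above 20 in a group with a limited spread.

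Here limma 3.58.1 (R 4.3.3, statmod 1.5.0) was fitted to log2(value + 1) of all genes with a mean of at least 10, with group and sex as terms, trend and robust settings, and Benjamini-Hochberg adjustment over all genes of a table, 2-sided; the steps were checked on simulated data. Fold changes understate low genes. Members, lists and tests were chosen with earlier results of these data known. Full values were given for the 4 members with the lowest p in each incision comparison, for the 12 lowest with age, and for others where groups or direction are described; these were chosen after their values were seen. Other pathway genes were named by lowest p, at most 3 a list. Gene positions are from GENCODE M21 (GRCm38). The labels give no batch.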

Additional observations from a re-analysis of the deposited data

Results flagged for a closer look

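For 20 member values, 1 library lay far from the other 3 of its group by Dixon's test at the 95% level, among 196 groups of 4 tested over all listed members, and chance gives about 1 in 20. In the P4 table these were S1pr3 at 108, Serping1 at 82.2 and Ptx3 at 62.5 in incised M2, Ifitm2 at 242 in incised M1, and Tm4sf1 at 196 and Irf1 at 137 in naive F2. In the P24 table they were Psmb8 at 36.4 in incised F1, Srgn at 7.19 and Ggta1 at 34.1 in incised F2, H2-K1 at 444 in incised M2, and Ptx3 at 33, Maob at 292, Serpina3n at 601 and Cebpd at 21.3 in naive F2. The age table shares naive libraries with the others. It repeated P24 naive F2 for Ptx3 at 28.9, Maob at 253, Serpina3n at 514 and Cebpd at 18.7, and P4 naive F2 for Tm4sf1 at 231 and Irf1 at 164. Groups of 3 were not tested.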

How the results depend on the processing

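The number of members called after incision was 0 under each of 17 alternatives at P4, P10 and P24, and 0 in 10 alternatives of the test between ages. With age, 12 to 18 members were called over 21 alternatives, and 10 to 14 at P24 against P4. At P10 against P4 the count of 6 became 2 without trend and robust settings, and ranged from 3 to 6 with 1 library left out. At P24 against P10 the count of 10 became 4 without trend and robust settings, and ranged from 4 to 10 with 1 library left out. The cause was not tested. The replicate block, on the sex and number of the titles, gave 4 members at P24 against P10, and called Gfap, which is no member, at P10 (incised minus naive -0.73, adjusted p = 8.28e-04). Same-numbered libraries had correlations of -0.123 to 0.026. These values show no pairing of the pups by number, though they cannot exclude it. Ptx3 at P10 turned to -0.36 without P10 naive M1, and ranged from -0.36 to 2.54 with 1 library left out. Both ends rest on a single library of a group, as the sex term leaves only incised F2 or only naive M1 to compare. Depth is unknown and 3 libraries a group limit P10.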
